A study of Mus musculus with 3 samples.

Results

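The genes examined here were the mouse chemokines and their receptors, that is, every protein-coding gene whose symbol is Ccl, Cxcl, Ccr, Cxcr or Ackr followed by a number. The rule gave 58 of 21758 protein-coding genes. Chemokines are small secreted proteins that draw cells along a gradient, and their receptors signal through G proteins. The atypical receptors (Ackr) bind and remove chemokines without the usual signal. In skin, inflammatory chemokines call in leukocytes after injury or ultraviolet light, and homeostatic chemokines place resident cells.

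Chromatin was profiled nucleus by nucleus with ATAC-seq, an assay that tags open DNA with a transposase, so every value below is chromatin accessibility and not RNA. All mice were Dct-rtTA; Tre-H2B-GFP and drank doxycycline for 5 days. In this model the Dct promoter, active in cells of the melanocyte lineage, drives the doxycycline-dependent activator that switches on a GFP-tagged histone. GFP-positive nuclei came from dorsal skin of 12 telogen mice (resting hair follicles), of 8 anagen mice (follicle growth started by shaving and depilation with Nair) and of 24 mice exposed to UVB at 2.2 mJ/cm2, 3 times within a week. The ages given are 7 weeks in the treatment text and 8 weeks in the sample characteristics. Mice were pooled. Telogen and anagen came from 1 deposited sample and UVB from others, so an effect of UVB and one of the library cannot be told apart. The UVB pool was run as technical replicates that were not separated here, which leaves 1 sample a condition, no replicate check and no p-value. All intervals are 95% intervals for counting error only, and since most counts come in pairs they are too narrow.

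With each barcode counted once, there were 2042 telogen, 3753 anagen and 6553 UVB nuclei. They summed to 5225945, 10397896 and 16182770 counts. A typical nucleus had 1650, 1577 and 1726 (medians), and 506 barcodes occurred in more than 1 condition. When entries sharing many open features were counted as copies instead, 1259 telogen, 3547 anagen and 6553 UVB nuclei were left. Barcodes also carry a tag number that the labels do not explain. UVB tag number 19 held 2934 nuclei and 51.6% of the UVB counts, with 81.3% of the UVB fibroblast-like and 77.3% of the UVB keratinocyte-like nuclei. Telogen tag number 1 held 50 nuclei, of which 44.0% were immune. Nuclei named melanocyte-like were a minority of the sort, at 5.49% of telogen, 25.1% of anagen and 19.5% of UVB nuclei. Another 5.68%, 5.44% and 25.7% lay in cluster 0, left unnamed below though its highest marker list was melanocyte.

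A gene's level is in CPM, its counts scaled to the same total in every condition, summed over the deposited 500 bp features that overlap its body or the 2 kb at either end. Of the 58 genes, 47 had such a feature. The 11 without one were Ccl5, Ccl19, Ccl21a, Ccl21b, Ccl21c, Ccl21d, Ccl26, Ccl27b, Ccr1l1, Ccr3 and Ccr8, and they have no value here. A start of transcription was given for 43 of the 58 genes, and in 23 of these a feature lay over it. Genes with no start given were not scored. In 13 genes some features also lay in a neighbour's window. All counts of Ccr10 (shared with Cntnap1 and Plekhh3), Cxcl16 (Med11 and Zmynd15), Cxcl10 (Art3), Ackr4 (Acad11), Cxcr6 (Fyco1), Ackr1 (Cadm3) and Ccl3 (Ccl4) were shared in this way, as were 96.8% of those of Ccl25 (Elavl1), 57.7% of Cxcr5 (Bcl9l) and 51.9% of Ccl4. Accessibility at these genes cannot be assigned to 1 gene. Smaller shares of counts were shared for Ackr2 (20.85%, with Cyp8b1), Ccl27a (16.1%, with Il11ra1) and Cxcl17 (3.63%, with Lipe).

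Promoters are shown for 5 genes with a feature over the start, chosen because they carry the patterns described below: Ccl20 and Cxcl14 for keratinocyte-like nuclei, Ccl9 for immune nuclei, Ccl8 for fibroblast-like nuclei and Cxcl10 for the interferon-induced chemokines. Each runs 5′ to 3′ on the gene's own strand, from RefSeq on GRCm38.p6, at chr1:83116516-83116815 (plus strand), chr11:83578587-83578886 (minus), chr11:82114935-82115234 (plus), chr5:92348840-92349139 (minus) and chr13:56296502-56296801 (minus). Capitals mark matches, on either strand, to the AP-1 motif TGANTCA, the TATA motif TATAAA, the kappaB motif (bound by NF-kappaB) and the interferon-response motif.
Ccl20: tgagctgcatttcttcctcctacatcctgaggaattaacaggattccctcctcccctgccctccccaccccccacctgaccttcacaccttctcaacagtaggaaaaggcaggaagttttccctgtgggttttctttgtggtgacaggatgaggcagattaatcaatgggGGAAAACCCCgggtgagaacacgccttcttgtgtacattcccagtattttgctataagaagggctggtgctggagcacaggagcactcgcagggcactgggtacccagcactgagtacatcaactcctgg
Ccl9: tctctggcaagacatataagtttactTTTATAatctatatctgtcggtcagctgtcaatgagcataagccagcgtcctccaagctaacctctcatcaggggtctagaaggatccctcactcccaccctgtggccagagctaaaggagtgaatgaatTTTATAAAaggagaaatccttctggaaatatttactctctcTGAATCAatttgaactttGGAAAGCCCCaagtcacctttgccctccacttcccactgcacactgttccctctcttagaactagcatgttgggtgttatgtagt
Ccl8: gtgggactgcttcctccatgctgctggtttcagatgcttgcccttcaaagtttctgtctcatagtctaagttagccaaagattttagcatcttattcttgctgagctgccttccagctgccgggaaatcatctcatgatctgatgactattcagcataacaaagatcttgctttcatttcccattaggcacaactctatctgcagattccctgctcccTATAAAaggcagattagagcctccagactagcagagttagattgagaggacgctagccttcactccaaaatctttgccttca
Cxcl10: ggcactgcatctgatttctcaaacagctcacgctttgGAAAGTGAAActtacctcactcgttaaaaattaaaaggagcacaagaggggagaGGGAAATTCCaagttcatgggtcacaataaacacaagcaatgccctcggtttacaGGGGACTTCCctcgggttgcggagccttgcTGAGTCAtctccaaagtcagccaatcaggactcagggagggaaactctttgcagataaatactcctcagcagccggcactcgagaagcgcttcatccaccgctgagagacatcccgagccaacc
Cxcl14: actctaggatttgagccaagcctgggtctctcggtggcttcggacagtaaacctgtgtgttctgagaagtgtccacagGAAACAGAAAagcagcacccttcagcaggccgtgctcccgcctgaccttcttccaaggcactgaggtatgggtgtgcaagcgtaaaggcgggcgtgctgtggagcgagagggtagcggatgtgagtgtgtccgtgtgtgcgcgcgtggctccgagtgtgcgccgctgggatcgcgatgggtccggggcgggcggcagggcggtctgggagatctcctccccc
Cxcl10 held 2 kappaB matches, 1 AP-1 match and 1 interferon-response match, Ccl20 held 1 kappaB match on the opposite strand, and Ccl9 held AP-1, kappaB and TATA letters. Of the 58 genes, 43 were found by symbol in the promoter table. The kappaB letters occurred in 9 of 43 genes (20.9%, against 6.31% of all genes in the table), and the AP-1 letters in 9 of 43 genes (20.9%, against 8.97% of all genes in the table). The TATA letters occurred in 13 of 43 genes (30.2%, against 15.7% of all genes in the table), and the interferon-response letters in 3 of 43 genes (6.98%, against 3.99% of all genes in the table). A match describes the letters of this window and is not a binding site.

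**Figure D1:**
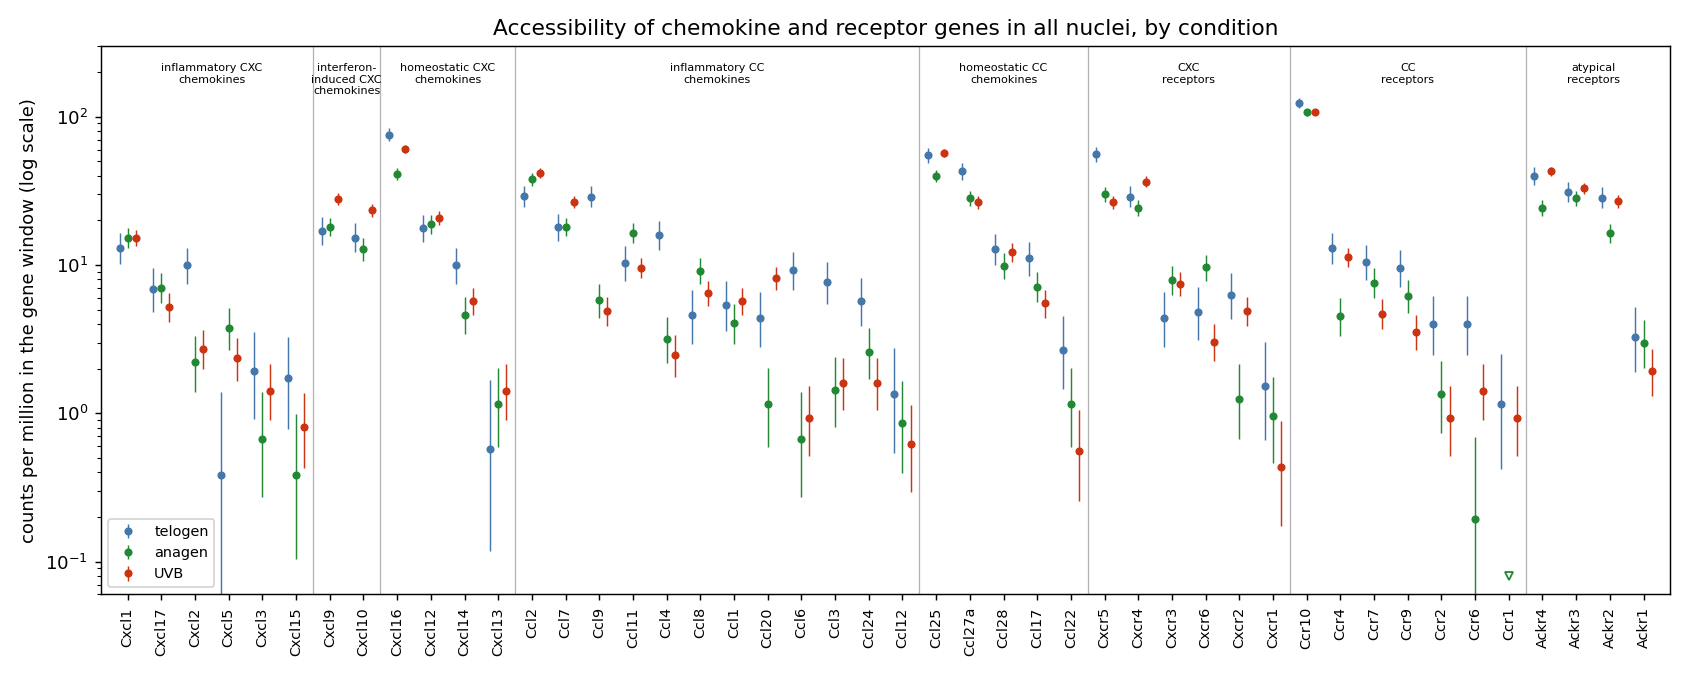
CPM (log scale) in the windows of genes with a feature, over all nuclei of telogen, anagen and UVB, grouped by role. Bars are exact Poisson 95% intervals and the open triangle marks 0 counts (Ccr1 in anagen). Ccr10 is the only gene above 100 CPM, and telogen stands above both other conditions for Ccl9, Ccl4, Ccl6 and Ccl3.

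Per kb of window and averaged over the conditions, the levels were led by Ccr10, the receptor of Ccl27a, at 17.5 CPM per kb. Ccl2, which attracts monocytes, followed at 6.17, Cxcl16 at 6.16, Ccl27a, the skin ligand of Ccr10, at 3.72, and Cxcr4, the receptor of Cxcl12, at 3.69. Ccl7 (3.59), Cxcl10 (2.75), Cxcl1 (2.47), Cxcr5 (2.00) and Ackr3 (1.96) completed the highest 10. The lowest gene with a feature was Ccr1, at 0.0655 CPM per kb. Ccr10 stood at 124 CPM in telogen, 107 in anagen and 107 in UVB, Ccl2 at 29.1 CPM in telogen, 37.9 in anagen and 41.8 in UVB, and Cxcl16 at 75.8 CPM in telogen, 41.2 in anagen and 60.4 in UVB. Ccl27a stood at 43.1 CPM in telogen, 28.2 in anagen and 26.4 in UVB, Cxcr4 at 28.9 CPM in telogen, 24.1 in anagen and 36.5 in UVB, and Ackr3 at 31.2 CPM in telogen, 28.2 in anagen and 33.1 in UVB. Telogen was highest for Ccr10, Cxcl16 and Ccl27a, and UVB for Ccl2, Cxcr4 and Ackr3. Across conditions these genes differed less than 2-fold, but Cxcr5 more, at 55.9 CPM in telogen, 29.9 in anagen and 26.4 in UVB. Without UVB tag number 19, Ccl2 was at 19.65 CPM in UVB. It was then below telogen, at 0.676 (0.537 to 0.851), and below anagen, at 0.519 (0.428 to 0.626). Cxcr1, Ccl12, Cxcl15 and Ccr1 had 10 to 29 counts in all, too few to compare.

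No gene with at least 30 counts had its highest level in melanocyte-like nuclei. Nuclei were clustered on features outside the 58 windows and clusters were named by other genes' markers, as melanocyte-like (clusters 3 and 6), fibroblast-like (4 and 5), keratinocyte-like (2 and 9), endothelial-like (1), Schwann-like (8) and immune (7). In the immune cluster the myeloid and Langerhans markers had a median log2 ratio of 4.46 over other nuclei and the T cell markers 2.47. Cluster 0, with Dct at 915.6 CPM against 332.8 elsewhere, was left unnamed because its melanocyte and Schwann marker scores lay close together. Cluster 10, with 71 nuclei, was left out of the ranking of classes. Of 43 genes with at least 30 counts in the other classes, 19 were highest in immune and 9 in fibroblast-like nuclei. Another 7 were highest in keratinocyte-like, 4 in Schwann-like and 3 in endothelial-like nuclei, and Cxcl13 in cluster 0. In 3 other clusterings the count for fibroblast-like nuclei was 4.

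The leading genes of each class are given among those with at least 30 counts in that class, which leaves out, among others, Ackr1 in endothelial-like (28 counts, 5.52-fold over other nuclei), Ccl1 in Schwann-like (13, 2.03-fold) and Cxcl13 in cluster 0 nuclei (8, 2.25-fold). Immune nuclei were led by Ccl4, Ccl3, Ccl9, Ccl6 and Ccr2. Ccl4 stood at 67.3 CPM against 1.10 in all other nuclei, a ratio of 61.1 (41.4 to 92.7). Ccl3, whose features also lie in the Ccl4 window, gave 53.5 (31.6 to 94.8). Ccl9, a monocyte attractant, stood at 111 CPM against 2.90, a ratio of 38.3 (29.6 to 49.8), and 70.0% of its counts came from nuclei with 5.75% of all counts. Ccl6 (35.8) and the monocyte receptor Ccr2 (26.8) followed. At a finer resolution the immune nuclei split into a T cell-like and a myeloid-like cluster. Ccl4 (48.8-fold) and Ccl24 (31.3-fold) stood out in the myeloid-like nuclei, and the lymph node homing receptor Ccr7 (9.50-fold) and Cxcr6 (8.96-fold) in the T cell-like nuclei. Ccl9 was high in both, at 22.2-fold in the myeloid-like and 14.3-fold in the T cell-like nuclei.

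Fibroblast-like nuclei were led by Ccl8, an attractant of monocytes, Ccl11 and Cxcl5. Ccl8 stood at 25.7 CPM against 0.675 in other nuclei, a ratio of 38.2 (22.9 to 68.0), with 92.9% of its counts in the class. Ccl11, the eosinophil attractant eotaxin, gave 17.8 (13.3 to 24.2), and Cxcl5, a neutrophil attractant, 13.6 (7.57 to 26.3). Ccl7 (8.47), Ccl2 (5.86) and the scavenging receptor Ackr4 (4.56) followed.

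Keratinocyte-like nuclei held Ccl20, the ligand of Ccr6, at 22.5 CPM against 1.49 in other nuclei, a ratio of 15.0 (10.4 to 22.1). Cxcr2, the receptor of Cxcl1 and Cxcl2, gave 10.1 (6.84 to 15.2), and Cxcl14, a chemokine of resting epithelium, 6.55 (4.87 to 8.85). Ccr4, best known from T cells, gave 6.05 (4.78 to 7.67) and the scavenger Ackr2 4.45 (3.85 to 5.15). Endothelial-like nuclei were led by Cxcl17, at 27.5 CPM against 3.94 and a ratio of 6.97 (5.16 to 9.37), before Cxcl1 (2.27) and Ccr7 (2.22). Schwann-like nuclei were led by Cxcr4, at a ratio of 2.84 (2.30 to 3.47), before Cxcl10 (2.24) and Cxcl1 (1.74).

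In melanocyte-like nuclei 3 receptors led. Cxcr3, the receptor of Cxcl9 and Cxcl10, stood at 15.0 CPM against 4.27 in other nuclei, a ratio of 3.52 (2.69 to 4.63). Cxcr6, the receptor of Cxcl16, gave 3.44 (2.53 to 4.70) and Cxcr4 1.31 (1.14 to 1.49). Both Cxcr3 and Cxcr6 were higher in immune than in melanocyte-like nuclei, by 1.24-fold and 1.91-fold. Between the melanocyte-like clusters, Cxcr6 was 4.44 times the level of other nuclei in cluster 6, which is mostly anagen, and 1.06 times in cluster 3. Cluster 0 was led by Cxcr4, at a ratio of 2.09 (1.78 to 2.45), before Cxcr3 (1.50) and Ccl25 (1.24). Cluster 10, with 71 anagen nuclei, had at least 30 counts for Ccr10 alone (1.50).

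**Figure D2:**
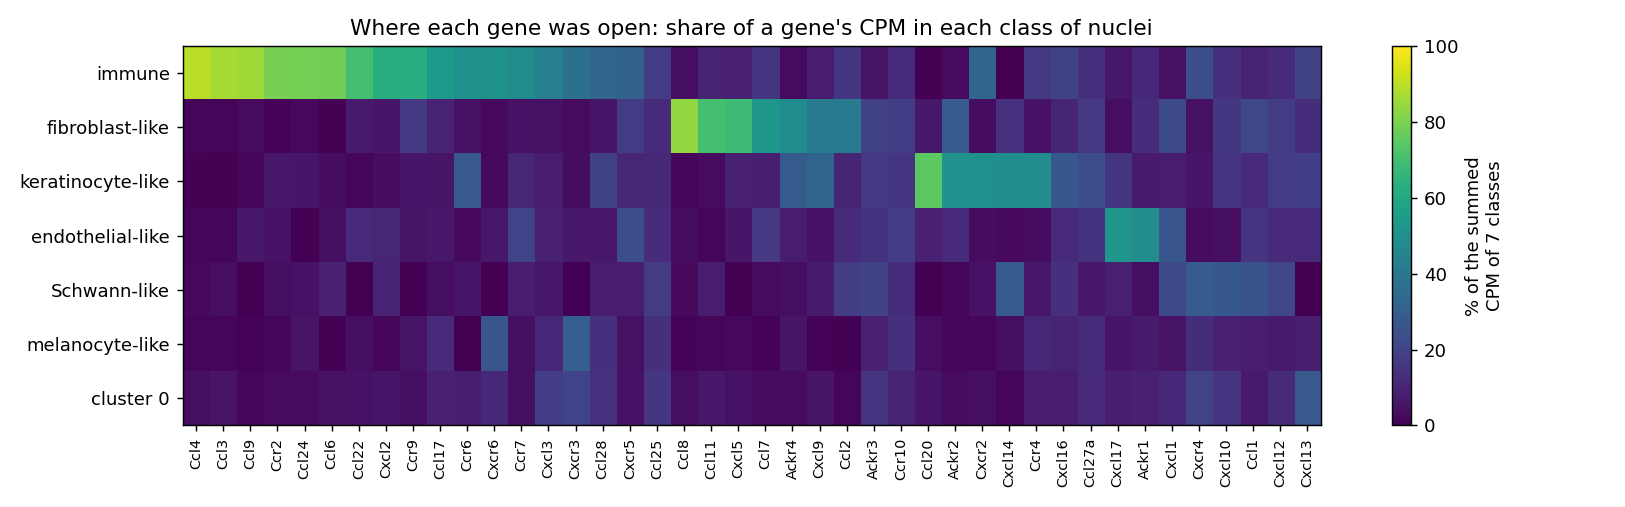
Share of each gene's CPM in 7 classes of nuclei, in percent of the sum over the classes, with cluster 10 left out. Genes with at least 30 counts are shown, ordered by the class where the level is highest. The widest block of high share lies in immune nuclei, followed by fibroblast-like nuclei with 9 genes and keratinocyte-like nuclei with 7.

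Over all sorted nuclei, levels were lower in UVB than in telogen at many genes of leukocytes. A gene was counted as higher or lower when it differed at least 2-fold with at least 30 counts over both conditions. Of 41 genes with such counts, 1 was higher (Cxcl5) and 13 were lower, where 3.93% of all protein-coding genes were higher and 5.57% lower by the same rule. The median log2 ratio was -0.33 over the 41 genes and -0.13 over all genes. Among the lower genes were Ccl3, Ccl4, Ccl6, Ccl9, Ccl17, Ccl24, Cxcl2, Ccr2, Ccr6, Ccr7, Ccr9 and Cxcr5. By role, 5 of 7 CC receptors and 5 of 11 inflammatory CC chemokines were lower, and 0 of 4 atypical receptors. Without UVB tag number 19, the atypical receptors Ackr4 (interval 0.233 to 0.384) and Ackr2 (interval 0.277 to 0.484) were also below telogen by at least 2-fold, as were Ccl7, Ccl8 and Ccl11, whereas Ccr7 was 0.509 (0.333 to 0.775). Over all nuclei, fewer cells of a type and less accessibility per nucleus cannot be told apart. Without nuclei whose counts exceeded 3 times their condition's median, 2 genes were higher and 6 lower. The share of all genes was not computed there.

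Ccl6, a monocyte attractant, stood at 9.19 CPM in telogen (48 counts), 0.673 in anagen (7) and 0.927 in UVB (15), and UVB over telogen was 0.101 (0.0525 to 0.183). Ccl4 stood at 15.9 CPM in telogen (83 counts), 3.17 in anagen (33) and 2.47 in UVB (40), with a ratio of 0.156 (0.104 to 0.230). Ccl9 stood at 28.9 CPM in telogen (151 counts), 5.77 in anagen (60) and 4.88 in UVB (79), with a ratio of 0.169 (0.127 to 0.223). These 3 genes had the lowest ratios among genes with at least 30 counts, and each stood highest in telogen. Ccl3 gave 0.210 (0.123 to 0.353), Ccr2 0.231 (0.111 to 0.469) and Cxcl2, a neutrophil attractant, 0.273 (0.179 to 0.416). Of the telogen Ccl9 counts, 49.0% came from tag number 1. Without that tag number, UVB over telogen was 0.280 (0.202 to 0.388) for Ccl9, 0.280 (0.175 to 0.446) for Ccl4, 0.417 (0.218 to 0.819) for Ccl3 and 0.186 (0.0897 to 0.375) for Ccl6, which had 54.2% of its telogen counts there. Without UVB tag number 19, Ccl9 was 0.0707 (0.0394 to 0.119).

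The share of immune nuclei moved with these genes, at 18.0% of telogen, 3.68% of anagen and 4.49% of UVB nuclei. By tag number it ran from 10.0% to 44.0% in telogen, from 0.94% to 8.04% in anagen and from 0% to 11.7% in UVB. An alternative added after seeing the data gave each cluster the same share in both conditions. There 2 genes were higher (Cxcl5 and Ccl20) and 1 lower (Ccl6, 0.257), with the share of all genes not computed. Ccl9 was then 0.820 and Ccl4 0.649. With immune nuclei left out, Ccl9 was at 2.48 CPM in UVB and 2.43 in telogen.

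The highest ratio of UVB over telogen was that of Cxcl5, at 6.14 (1.59 to 52.5) on 38 and 2 counts. UVB tag number 19 held 89.5% of its UVB counts, and without it the ratio was 1.33 (0.191 to 14.8). Ccl20 stood at 4.40 CPM in telogen (23 counts), 1.15 in anagen (12) and 8.16 in UVB (132), a ratio of 1.85 (1.18 to 3.03), and 1.54 (0.926 to 2.63) without tag number 19. The feature over the Ccl20 start, in the promoter printed above, held 1 count in telogen, 8 in anagen and 31 in UVB. The feature downstream of the gene held 22, 4 and 101 counts. Cxcr3 gave 1.70 (1.08 to 2.78). The interferon-induced ligands of Cxcr3 were also above telogen without reaching 2-fold, Cxcl9 at 1.63 (1.30 to 2.07) and Cxcl10 at 1.53 (1.20 to 1.98), as was Ccl7 at 1.47 (1.18 to 1.86). Without tag number 19, Cxcl9 was at 0.532 (0.384 to 0.735) and Ccl7 at 0.355 (0.247 to 0.505), both below telogen, and Cxcl10 was at 1.53 (1.17 to 2.01).

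**Figure D3:**
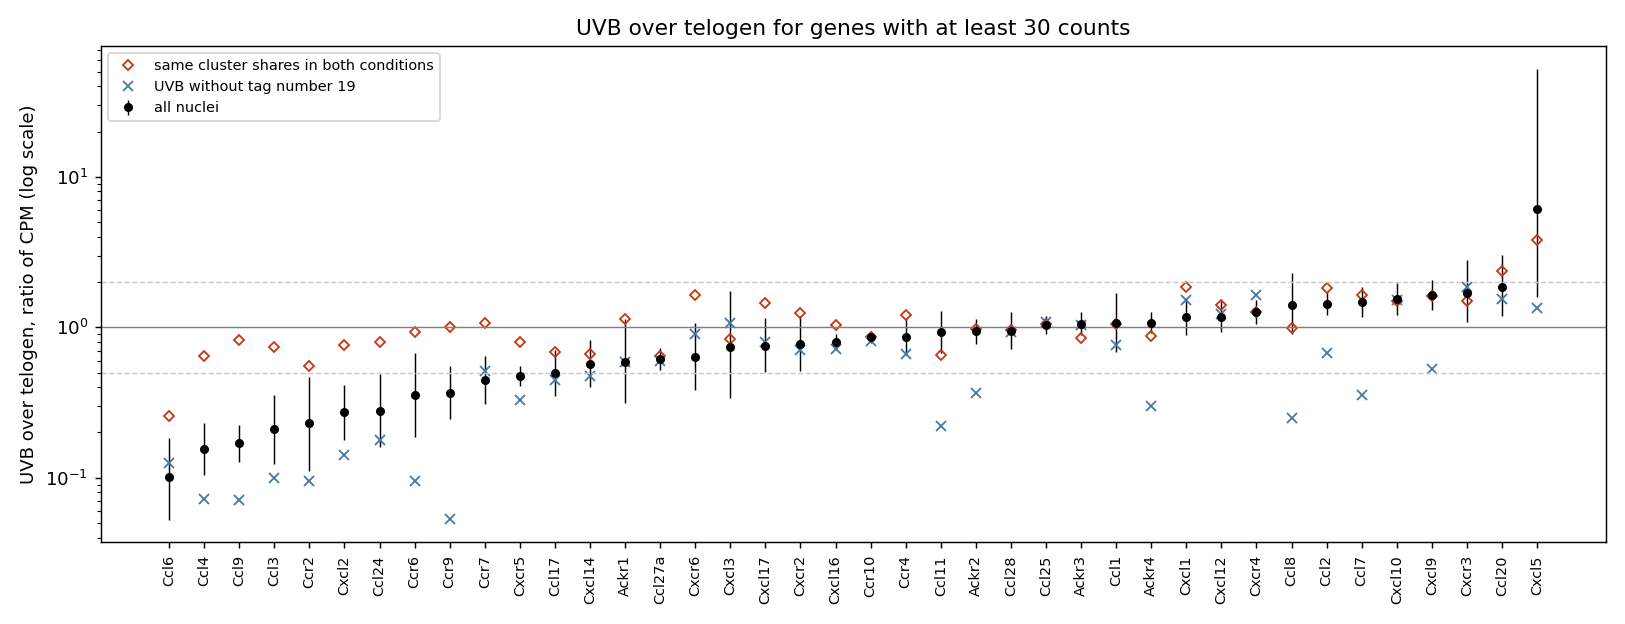
UVB over telogen (ratio of CPM, log scale) for genes with at least 30 counts. Black points with 95% counting intervals are all nuclei, red diamonds give each cluster the same share in both conditions, blue crosses leave out UVB tag number 19, and dashed lines mark 2-fold. Ccl4 and Ccl9, among the lowest for all nuclei, lie at 0.649 and 0.820 with the same cluster shares.

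Anagen nuclei also had lower levels than telogen nuclei at Ccl6, Ccl3, Ccl9, Ccl4, Cxcl2 and Cxcr2. This comparison shares its telogen sample with the one above. Of 39 genes, 2 were higher (Cxcl5 and Cxcr6) and 12 lower, where 5.74% of all protein-coding genes were higher and 7.06% lower by the same rule. The median log2 ratio was -0.47 over the 39 genes and -0.11 over all genes. Ccl6 gave 0.0733 (0.0280 to 0.163), Ccl3 0.189, Ccl9 0.200, Ccl4 0.200 and Cxcl2 0.222. Without telogen tag number 1, Ccl6 was 0.135 (0.0487 to 0.327), Ccl3 0.375 (0.174 to 0.797), Ccl9 0.331 (0.232 to 0.470) and Ccl4 0.359 (0.219 to 0.586). With each cluster given the same share, Ccl3 (1.46) and Ccl4 (1.23) were above telogen, Ccl9 was 0.771 and Ccl6 0.238. Ccl20 was among the 12 lower genes, at 0.262 (0.119 to 0.549), on a feature downstream of the gene with 22 counts in telogen and 4 in anagen. The feature at its start lay the other way, with 1 and 8 counts, and the log2 ratio was 2.01 over the gene body with no flank. Cxcr2 stood at 6.32 CPM in telogen (33 counts), 1.25 in anagen (13) and 4.88 in UVB (79), and anagen over telogen was 0.198 (0.0956 to 0.386). Keratinocyte-like nuclei, where Ccl20 and Cxcr2 were highest, made up 21.6% of telogen and 8.82% of anagen nuclei. With the same cluster shares, Cxcr2 was 1.19 and 4 genes were higher and 3 lower. Without nuclei above 3 times their condition's median 1 gene was higher and 2 lower. For both settings the share of all genes was not computed. Cxcl5 gave 9.80 (2.54 to 83.8) on 39 and 2 counts, and Cxcr6 2.01 (1.29 to 3.25). Ccl8 (1.99), Cxcr3 (1.79), Ccl11 (1.60) and Ccl2 (1.30) were next, and fibroblast-like nuclei made up 15.6% of telogen and 29.7% of anagen nuclei.

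Between UVB and anagen nuclei, Ccl20, Cxcr2 and Ccr4, all highest in keratinocyte-like nuclei, led the higher genes. Of 39 genes, 4 were higher in UVB and 1 lower, where 4.15% of all protein-coding genes were higher and 4.56% lower by the same rule. Ccl20 gave 7.07 (3.91 to 14.0), Cxcr2 3.91 (2.16 to 7.66) and Ccr4 2.49 (1.80 to 3.51), and Cxcl3, on few counts, 2.11 (0.877 to 5.83). Cxcl10 (1.84) and Ackr4 (1.77) were next. For Ccl20, the feature downstream of the gene held 101 UVB and 4 anagen counts. The feature at its start held 31 and 8, a ratio of 2.49 (1.12 to 6.27). For Ccr4, 1 feature in the gene body held 110 UVB and 5 anagen counts. Cxcr6 was the lower gene, at 0.315 (0.219 to 0.447), before Ccr9 (0.572), Ccl11 (0.579), Ccr7 (0.618), Ccl24 (0.619) and Cxcl5 (0.626). Without tag number 19, Ccl20 was 5.86 (3.09 to 12.1) and Cxcr2 3.57 (1.84 to 7.36). There 2 genes were higher and 11 lower, but the share of all genes was not computed without that tag number. Ackr4 was then 0.495 (0.386 to 0.630), Ccr9 0.0829 (0.0219 to 0.223), Ccl11 0.139 (0.0804 to 0.226) and Cxcl5 0.136 (0.0353 to 0.377). Keratinocyte-like nuclei made up 8.82% of anagen and 22.8% of UVB nuclei. With the same cluster shares, Ccl20 was 6.53 and Ccr4 4.57, and Cxcr2 0.989.

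Within keratinocyte-like nuclei, several inflammatory ligands were higher in UVB than in telogen. Of 21 genes 5 were higher (Ccl20, Cxcl1, Cxcl10, Cxcl17 and Ccl2) and 0 lower, where 6.70% of all protein-coding genes were higher and 3.69% lower by the same rule. Ccl20 stood at 12.0 CPM in telogen, 5.51 in anagen and 29.7 in UVB, on 19, 3 and 106 counts, and UVB over telogen was 2.49 (1.52 to 4.30). It was 4.60 (2.66 to 8.29) without tag number 19 and 2.37 (1.41 to 4.23) in cluster 2 alone. Cxcl10 gave 2.02 (1.25 to 3.41), and 2.86 (1.61 to 5.21) without tag number 19. Ccl2 gave 2.10 (1.34 to 3.41), but 0.683 (0.280 to 1.52) without that tag number. Cxcl17 gave 2.45 (1.02 to 7.16) on 33 and 6 counts and Cxcl1 2.23 (0.976 to 5.95) on 35 and 7 counts. Cxcr2 stood at 13.2 CPM in telogen, 3.67 in anagen and 17.7 in UVB, and Cxcl14 at 27.0 CPM in telogen, 33.1 in anagen and 14.6 in UVB. Cluster 2 held 78.7% of the class in telogen, 32.9% in anagen and 91.5% in UVB, so different clusters made up the class.

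Between anagen and telogen keratinocyte-like nuclei, 6 of 14 genes were lower and 0 higher, where 7.40% of all protein-coding genes were higher and 10.2% lower by the same rule. The 6 were Ccl27a, Ccl25, Cxcr4, Ccr4, Ackr2 and Ackr3. Ccl27a stood at 72.9 CPM in telogen, 20.2 in anagen and 36.7 in UVB, and anagen over telogen was 0.277 (0.135 to 0.514). Ackr2 stood at 61.6 CPM in telogen, 20.2 in anagen and 73.5 in UVB and gave 0.328 (0.159 to 0.613), and Ccr4 at 35.2 CPM in telogen, 5.51 in anagen and 30.9 in UVB and gave 0.157 (0.0313 to 0.482). For these 3 genes anagen was the low condition, on 11 counts for Ackr2 against 98 in telogen. Cluster 2 held 78.7% of the class in telogen and 32.9% in anagen, so different clusters were compared. In cluster 2 alone 6 of 12 genes were lower and 2 higher, where 22.01% of all protein-coding genes were lower and 8.98% higher. Ccl27a, Ackr2 and Ackr3 were among the lower genes there, and Ccr4, Cxcr4 and Ccl25 were not. In cluster 9 alone 1 of 3 genes was lower (Cxcl16).

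Within fibroblast-like nuclei, 3 of 22 genes were higher in UVB than in telogen (Cxcl5, Ccl7 and Ccl1) and 0 lower, where 4.58% of all protein-coding genes were higher and 2.63% lower by the same rule. Ccl7 stood at 41.6 CPM in telogen, 43.1 in anagen and 88.7 in UVB, and UVB over telogen was 2.13 (1.53 to 3.03). It was 1.80 (1.10 to 2.91) without tag number 19, and 2.59 (1.68 to 4.18) in cluster 4 alone. Cxcl5 had 2, 35 and 28 counts in telogen, anagen and UVB, and Ccl1, a T cell attractant, had 5, 18 and 42 counts. Ccl2 stood at 66.6 CPM in telogen, 101 in anagen and 109 in UVB. Ccl8, the gene closest to being restricted to this class, stood at 23.9 CPM in telogen, 29.2 in anagen and 23.4 in UVB, and Ccl11 at 45.8 CPM in telogen, 48.2 in anagen and 33.0 in UVB. Cluster 4 held 58.2% of the class in telogen, 19.3% in anagen and 86.4% in UVB.

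Within immune nuclei, the genes that were lower over all nuclei mostly differed less than 2-fold. Of 21 genes 3 were higher in UVB than in telogen (Cxcl12, Ccl2 and Cxcr3) and 3 lower (Ccl6, Ccl27a and Cxcl10), where 3.79% of all protein-coding genes were higher and 8.54% lower by the same rule. Ccl9 stood at 126 CPM in telogen, 86.4 in anagen and 87.6 in UVB, and UVB over telogen was 0.693 (0.475 to 0.991). Ccl4 gave 0.530 (0.2995 to 0.890) and Ccl3 0.550 (0.235 to 1.15). Ccl6 stood at 39.4 CPM in telogen, 7.85 in anagen and 4.38 in UVB, on 44, 2 and 2 counts, with a ratio of 0.111 (0.0130 to 0.426). Cxcl12, the homeostatic ligand of Cxcr4, gave 3.38 (1.57 to 7.51) and Ccl2 2.93 (1.76 to 4.93). Without tag number 19, which held 61.6% of the UVB immune nuclei, Ccl2 was 1.27 (0.325 to 3.60). The finer T cell-like cluster held 240 telogen, 43 anagen and 136 UVB nuclei and the myeloid-like one 128, 96 and 165, so the makeup of the class differed. Its part in these ratios was not tested. In the myeloid-like nuclei 3 of 14 genes were lower in UVB than in telogen (Cxcl2, Ccl24 and Ccr9) and 0 higher. Of all protein-coding genes, 7.93% were lower and 4.85% higher there. In the T cell-like nuclei 1 of 5 was lower (Ccl9) and 2 higher (Cxcr5 and Ccr10), against 14.3% and 8.18% of all genes.

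Within melanocyte-like nuclei, 0 of 11 genes were higher or lower in UVB than in telogen, where 10.4% of all protein-coding genes were higher and 4.75% lower by the same rule. Telogen had 112 such nuclei. Between anagen and telogen, 1 of 15 genes was higher (Ackr4) and 3 lower (Ackr3, Cxcl12 and Ccr10), where 14.6% of all protein-coding genes were higher and 11.2% lower by the same rule. Ccr10 stood at 214 CPM in telogen, 75.3 in anagen and 121 in UVB, and anagen over telogen was 0.353 (0.257 to 0.495). Ackr3, which removes Cxcl12, stood at 53.4 CPM in telogen, 11.5 in anagen and 27.8 in UVB, giving 0.216 (0.111 to 0.458). Cxcr6 had 0, 79 and 17 counts in telogen, anagen and UVB, and Cxcr3 stood at 14.6 CPM in telogen, 13.7 in anagen and 16.8 in UVB. Cluster 6 held 2.68% of the class in telogen, 84.0% in anagen and 3.37% in UVB, so anagen was compared with another cluster. In cluster 3 alone Ccr10 gave 0.597. Among endothelial-like nuclei, 1 of 11 genes was higher in UVB than in telogen and 1 lower, where 3.74% of all protein-coding genes were higher and 4.28% lower by the same rule. The higher gene was Cxcl12, at 3.82 (1.74 to 9.04), and the lower one Ccl7, at 0.468 (0.171 to 1.11).

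**Figure D4:**
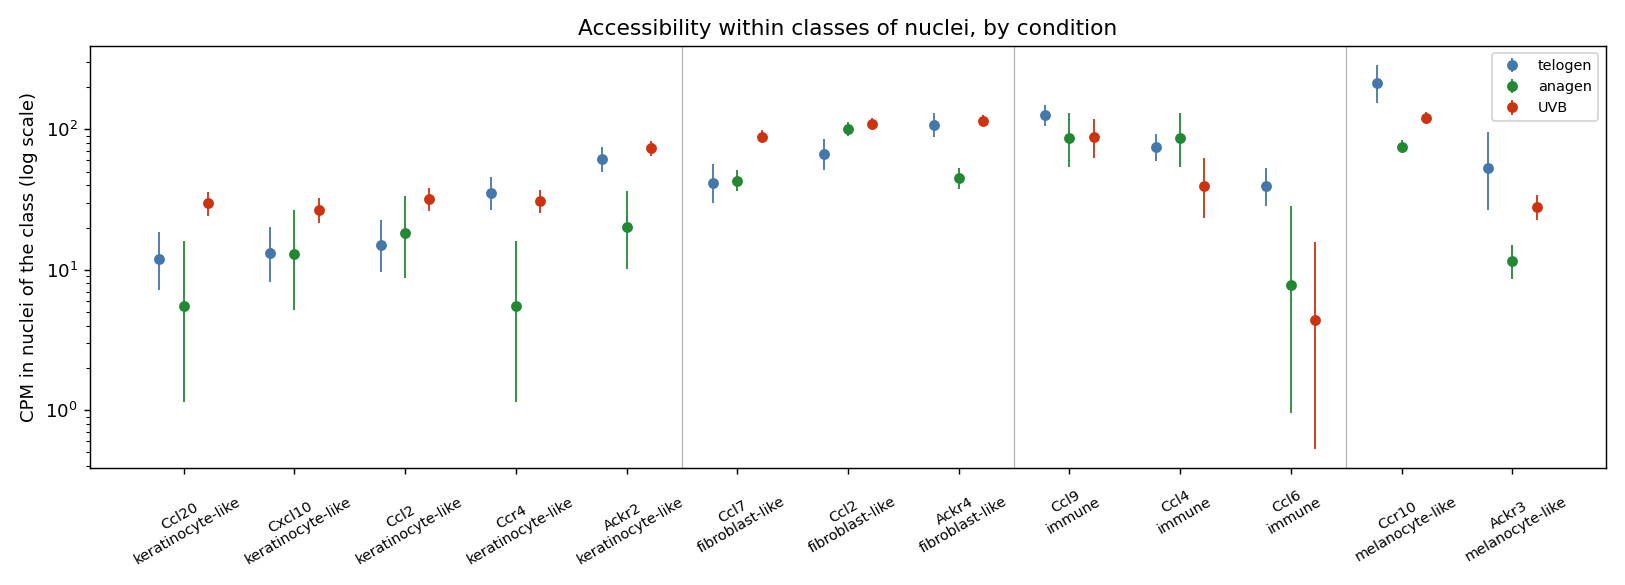
CPM within a class of nuclei (log scale) for 13 pairs of a gene and a class, in telogen, anagen and UVB, with exact Poisson 95% intervals. Ccl20 in keratinocyte-like and Ccl7 in fibroblast-like nuclei are highest in UVB, and Ccl6 in immune nuclei is highest in telogen.

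By ligand and receptor, Ccl20 was highest in keratinocyte-like nuclei and its receptor Ccr6 in immune nuclei, on 13 counts there. Cluster 10 was left out of these rankings too, so a gene called highest in a class may stand higher in that cluster. Over all nuclei Ccr6 stood at 4.02 CPM in telogen (21 counts), 0.192 in anagen (2, from 1 nucleus) and 1.42 in UVB (23). UVB tag number 19 held 87.0% of the UVB counts of Ccr6. Ccl2 was highest in fibroblast-like and Ccr2 in immune nuclei. Cxcl16 was highest in keratinocyte-like and Cxcr6 in immune nuclei. Ccl27a was highest in keratinocyte-like and Ccr10 in fibroblast-like nuclei, at 1.08 times its level in endothelial-like ones. Cxcl9 was highest in fibroblast-like, Cxcl10 in Schwann-like and their receptor Cxcr3 in immune nuclei. Cxcl12 and Cxcr4 were both highest in Schwann-like nuclei. Ackr3 was highest in fibroblast-like nuclei, at 1.00 times its level in Schwann-like ones. Ccr9 was highest in immune nuclei, and its ligand Ccl25 stood there at 1.01 times its level in Schwann-like nuclei, on counts mostly shared with Elavl1. Ccl17 and Ccl22 were highest in immune nuclei too, and their receptor Ccr4 in keratinocyte-like nuclei. Cxcl1 was highest in endothelial-like, Cxcl2 in immune and their receptor Cxcr2 in keratinocyte-like nuclei. Ccr8, the receptor of Ccl1, and Ccr3, the receptor of Ccl11 and Ccl24, had no feature. All counts of Cxcl16, Cxcr6, Ccr10 and Cxcl10 were shared with neighbours, so their classes cannot be assigned to 1 gene.

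Other genes of the chemokine system, grouped in 3 lists, gave these counts. Of 10 measured chemokines and receptors of other symbols, 0 were higher and 4 lower in UVB than in telogen (Cx3cr1, Pf4, Ccrl2 and Cd74), and 3 were lower in anagen (Cx3cr1, Ccrl2 and Cd74). Of all genes, 5.57% were lower in UVB than in telogen and 7.06% in anagen, and 3.93% and 5.74% were higher. Pf4, the chemokine of platelets, gave 0.343 (0.163 to 0.726) in UVB over telogen, Ccrl2 0.256 and Cd74, a receptor of Mif, 0.399. Of 16 signalling genes, 5 were lower in UVB (Grk2, Pik3cg, Rac2, Vav1 and Rgs1) and 4 in anagen (Pik3cg, Rac2, Rgs1 and Ptk2b). Rgs1, which shuts off chemokine receptor signals in leukocytes, gave 0.162 (0.121 to 0.213) in UVB over telogen. Of 12 factors that switch chemokine genes on, 0 were higher or lower in any comparison, where 4.15% of all genes were higher and 4.56% lower between UVB and anagen. The part of the immune share in these differences was not tested.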

How the data were processed

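Whole-number counts per 500 bp feature and nucleus were deposited as 3 matrices (telogen, anagen, UVB). Bowtie2, SAMtools, MACS2 and mm10 (GRCm38) are named, with no version or order, per the submitters' processing notes. The counting rule, any cut-site shift, nucleus filters and doublet removal were not stated in the labels or files, and a doublet caller was not run. Of the deposited counts, 30.9% of entries were 1 and 61.0% were 2.

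Each barcode after # was counted once per condition, the deepest entry kept, which left out 543 telogen, 1721 anagen and 62 UVB entries. Counts were summed over features overlapping a gene's body plus 2 kb and scaled by all counts in features of the condition to CPM. Intervals were exact Poisson for levels and exact conditional binomial for ratios. With 0 counts in a condition a floor of 3 counts was used. Nuclei were clustered on 163493 features, those of the 58 genes left out, by TF-IDF, singular value decomposition (30 components, 1 left out), 15 neighbours and Leiden at resolution 0.6, with scikit-learn 1.9.0, leidenalg 0.10.2 and igraph 0.11.9 in Python 3.11.15 (numpy 2.4.6, scipy 1.17.1, pandas 2.3.3). A cluster was named when at least 3 markers of a list were 2-fold above other nuclei and its median led the next list by 0.3 (log2), a rule settled after seeing the scores. The calls and ratio intervals were checked on simulated independent Poisson counts. That check does not cover counts that come in pairs or copied entries, as in the deposited data. Gene names and positions came from RefSeq.

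The genes named in full were the 10 highest per kb, up to 6 each way per comparison, the 3 leading genes of each class, and their ligand or receptor partners. The genes and lists were chosen with earlier results of these data known. The values of 1 gene are not reported here, but it is in the counts and medians. Other barcode rules, windows, scales, weights, thresholds, tag numbers and clusterings were tried.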

Additional observations from a re-analysis of the deposited data

Results flagged for a closer look

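For 4 genes a class of nuclei was at least 2-fold higher and another at least 2-fold lower between the same conditions. With 1 sample a condition, the difference between the classes was not tested. Ackr2, a scavenger of inflammatory CC chemokines, was higher in anagen than in telogen in endothelial-like nuclei, at 3.31 (1.48 to 8.38), and lower in keratinocyte-like nuclei, at 0.328 (0.159 to 0.613). Ackr4, whose features lie in the window of Acad11, was higher in UVB than in anagen in fibroblast-like nuclei, at 2.57 (2.13 to 3.13), and lower in melanocyte-like nuclei, at 0.292 (0.151 to 0.527). In the fibroblast-like cluster 4 alone it was 1.34. Ccr10, whose features are shared with Cntnap1 and Plekhh3, was higher in anagen than in telogen in immune nuclei, at 2.10 (1.37 to 3.17), and lower in melanocyte-like nuclei, at 0.353 (0.257 to 0.495). In the melanocyte-like cluster 3 alone it was 0.597. Cxcl12, the ligand of Cxcr4, was higher in UVB than in anagen in endothelial-like nuclei, at 2.46 (1.25 to 4.94), and in melanocyte-like nuclei, at 2.06 (1.30 to 3.31), and lower in fibroblast-like nuclei, at 0.489 (0.357 to 0.666). In the fibroblast-like clusters it was 1.09 in cluster 4 and 0.829 in cluster 5. The makeup of the class moved with these ratios, since cluster 4 held 19.3% of the fibroblast-like nuclei in anagen and 86.4% in UVB. Its part in them was not tested.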

How the results depend on the processing

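No paired analysis was possible because each condition is 1 sample. Of the 58 genes, 11 had no feature, for a cause that was not tested, and 4 had 10 to 29 counts, which leaves them wide intervals. Leaving out immune nuclei, giving clusters the same shares, leaving out telogen tag number 1 and using the largest cluster of a class alone were chosen after seeing the data. Where no value above shows a cause, it was not tested. Of the counts of genes past the fold or highest in a class, 90 stayed near the main count and 55 moved away from it. Of the single-gene values, medians and other values, 398 kept their direction and size. Another 86 moved beyond their counting interval and 24 changed sign.

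Over all nuclei, the share of all protein-coding genes past the fold was computed for the main setting only. For UVB over telogen, 1 gene was higher and 13 lower. The higher count was 0 with features counted as open or not and 0 without tag number 19. It was 2 with every barcode entry, 2 within 1 kb of gene ends, 2 on a housekeeping scale, 2 without deep nuclei, 2 at 10 counts, 2 without telogen tag number 1, 2 without immune nuclei and 2 with the same cluster shares. It was 3 with nuclei weighted equally, 3 without telogen tag numbers 8 to 10, and 5 both with copies found by overlap and at 1.5-fold. The lower count was 8 within 1 kb, 6 without deep nuclei, 3 without immune nuclei and 1 with the same shares. The housekeeping scale moved the median of all genes by 0.15 (log2) here and by 0.16 for anagen over telogen.

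For anagen over telogen, 2 were higher and 12 lower. The higher count was 1 with every entry, within 1 kb, with features in 1 gene window, with presence only and without deep nuclei. It was 4 on the housekeeping scale, without immune nuclei and with the same shares, and 5 at 1.5-fold. The lower count was 5 with copies by overlap, 6 with presence only, 2 without deep nuclei, 19 at 1.5-fold, 5 without immune nuclei and 3 with the same shares. For UVB over anagen, 4 were higher and 1 lower. The higher count was 9 at 1.5-fold, 7 at 10 counts and 2 without tag number 19. The lower count was 2 within 1 kb and without immune nuclei, 6 with equal weights, 3 without deep nuclei and at 10 counts, 7 at 1.5-fold, 11 without tag number 19 and 0 with the same shares.

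Some log2 ratios changed sign. The median of UVB over anagen was -0.23 with equal weights, -0.22 without deep nuclei and -0.51 without tag number 19. For anagen over telogen, Ccr4 was 0.65 and Cxcl14 0.42 with copies by overlap, and Ccl20 2.01 with no flank. Without immune nuclei, UVB over telogen was 0.65 for Ccl24, 0.0089 for Ccl17, 0.27 for Ccr9, 0.18 for Ccr2, 0.028 for Ccl9, and 0.57 for Ccl3 and 0.94 for Ccl4, both set against a floor of 3 counts. Anagen over telogen was then 1.02 for Ccl24, 0.62 for Ccl9 and 0.57 for Ccl4, the last set against the same floor (11 anagen counts, 0 in telogen). With the same shares, UVB over telogen was 0.085 for Ccr7, and UVB over anagen -0.016 for Cxcr2. Anagen over telogen then had a median of 0.049, with Cxcr2 at 0.25, Ccl24 at 0.83, Ccr2 at 1.15, Ccl3 at 0.54 and Ccl4 at 0.30.

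Within classes, 9 genes were highest in fibroblast-like nuclei, and 4 with all features, with seed 3 and at resolution 1.0. Without tag number 19, UVB over telogen in keratinocyte-like nuclei gave 3 genes higher and 1 lower, where cluster 2 alone gave 2 lower. Without that tag number 1 gene was lower in fibroblast-like and 1 in melanocyte-like nuclei, and 1 was higher in immune nuclei. With seed 3, 1 gene was higher and 1 lower in melanocyte-like nuclei. Within classes, shares of all genes were not computed with seed 3 or without tag number 19.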
